A study of Mus musculus with 6 samples.

Results

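NF-kappaB subunits and the feedback genes they control were followed in the livers of mice fed a microplastic. The set holds 10 genes chosen by symbol, namely 3 subunits (Nfkb1, Nfkb2, Relb), 3 proteins of the IkappaB family (Nfkbia, Nfkbiz, Bcl3), 2 feedback inhibitors (Tnfaip3, Zfp36) and 2 inflammatory target genes (Icam1, Il1b). All 10 were among the 56674 rows of the count table, and all 10 passed the filter on low counts that left 17871 genes for testing. The samples were livers of male C57BL/6 mice, an inbred laboratory strain, reared over 71 weeks. The control group (3 libraries) received normal chow, and the PB-MP group (3 libraries) received chow containing polypropylene black microplastic. The question was whether long exposure to this plastic changes which genes the liver expresses. The particle size, the dose and the time for which the chow was given are not stated in the labels used here. Whether each library is a different mouse is not stated, so the p-values reflect the spread among these 6 libraries, part of which may be technical.

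NF-kappaB is a family of dimeric transcription factors that are held in the cytoplasm of resting cells by IkappaB proteins. Signals from receptors for tumour necrosis factor, interleukin-1 and microbial products activate the IkappaB kinase complex, which marks IkappaB for destruction and frees the dimers to enter the nucleus. There they induce cytokines and adhesion molecules together with their own inhibitors, which limit the response in time. In liver the pathway operates in hepatocytes, where it contributes to the acute phase response and to survival, and in resident macrophages (Kupffer cells), endothelial cells and recruited leukocytes.

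Promoter sequences are shown for members whose levels are contrasted below, because several of them are textbook examples of NF-kappaB feedback. RefSeq promoter windows on the build GRCm38.p6 were matched by symbol for 7 of the 10 genes, with 10 windows in all, and entries for Nfkb1, Relb and Nfkbiz were not used here. The files of the study name the build GRCm39, so these coordinates hold only for the sequence table. The kappaB consensus was searched on both strands in the 250 bases before the start site. A match was present for 3 of these 7 genes (Nfkb2, Nfkbia, Tnfaip3), a gene counting when any of its windows held one. Of all 32851 promoter windows of that length, counted singly, 7.25% held a match, so the units differ. The windows of Zfp36, Bcl3, Icam1 and Il1b held no match to the kappaB consensus, which says only that these letters are not in this window. That of Zfp36 held a match to the CArG box, the element bound by serum response factor, which 1.47% of all windows held. Each sequence covers the 130 bases before the start site, 5′ to 3′ on the strand of the gene, with capitals marking kappaB consensus matches in the first 3 and the CArG box match in Zfp36. In Nfkb2 a pair of matches overlap and read as 1 run.
Nfkb2, GRCm38.p6 chr19:46304607-46304736, plus strand: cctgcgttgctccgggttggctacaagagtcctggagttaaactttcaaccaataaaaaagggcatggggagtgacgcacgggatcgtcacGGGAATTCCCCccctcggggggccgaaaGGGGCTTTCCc
Nfkbia, GRCm38.p6 chr12:55492648-55492777, minus strand: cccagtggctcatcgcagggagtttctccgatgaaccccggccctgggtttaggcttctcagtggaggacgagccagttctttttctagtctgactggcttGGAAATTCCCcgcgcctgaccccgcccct
Tnfaip3, GRCm38.p6 chr10:19015411-19015540, minus strand: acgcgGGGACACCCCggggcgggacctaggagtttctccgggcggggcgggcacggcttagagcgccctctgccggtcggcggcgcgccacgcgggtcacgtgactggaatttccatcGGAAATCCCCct
Zfp36, GRCm38.p6 chr7:28379229-28379358, minus strand: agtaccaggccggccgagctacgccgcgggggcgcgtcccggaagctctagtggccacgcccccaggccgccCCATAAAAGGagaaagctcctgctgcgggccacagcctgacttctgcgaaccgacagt

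The libraries held 68357478 to 112566641 counted reads. Levels are given as CPM, which are read counts for every 1000000 reads of a library size that was adjusted by the trimmed mean of M-values (TMM). The adjustment factors lay between 0.887 and 0.961 for control libraries and between 1.04 and 1.118 for PB-MP libraries, so they moved with the diet. The share of reads from mRNAs of the mitochondrial genome did too, at 14.2% or more in control and 10.1% or less in PB-MP, and without the rRNA and mitochondrial rows the log2 fold change of Nfkbiz was 1.085 and that of Zfp36 0.594, against 1.06 and 0.57 with them. A count of 3 reads, the limit that a count of 0 allows, came to 0.0285 to 0.0495 CPM. Alb, the albumin transcript that marks hepatocytes, stood at 47165 to 56244 CPM in all 6 libraries. Of all 17871 genes tested, 0 passed in the quasi-likelihood test of edgeR once p was adjusted by Benjamini-Hochberg (threshold 0.05), while 2161 had an unadjusted p below 0.05. On the same genes limma-voom called 0 and DESeq2 called 540.

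Among the 10 genes, Nfkbiz and Zfp36 were the 2 whose levels stood higher in PB-MP without overlap between the groups, and Bcl3 was the 1 that stood lower without overlap. None passed the test in edgeR over all genes. At an unadjusted p below 0.05 there were 2 of 10, both higher in PB-MP, beside 12.1% of all genes tested (7.35% higher and 4.74% lower). The groups did not overlap for 3 of 10, beside 19.8% of all genes (11.4% higher and 8.49% lower). With so few members, these shares do not stand apart from the background. The median log2 fold change of the members was 0.08, against 0.01 over all genes tested. The plot of levels by library shows each value.

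**Figure D1:**
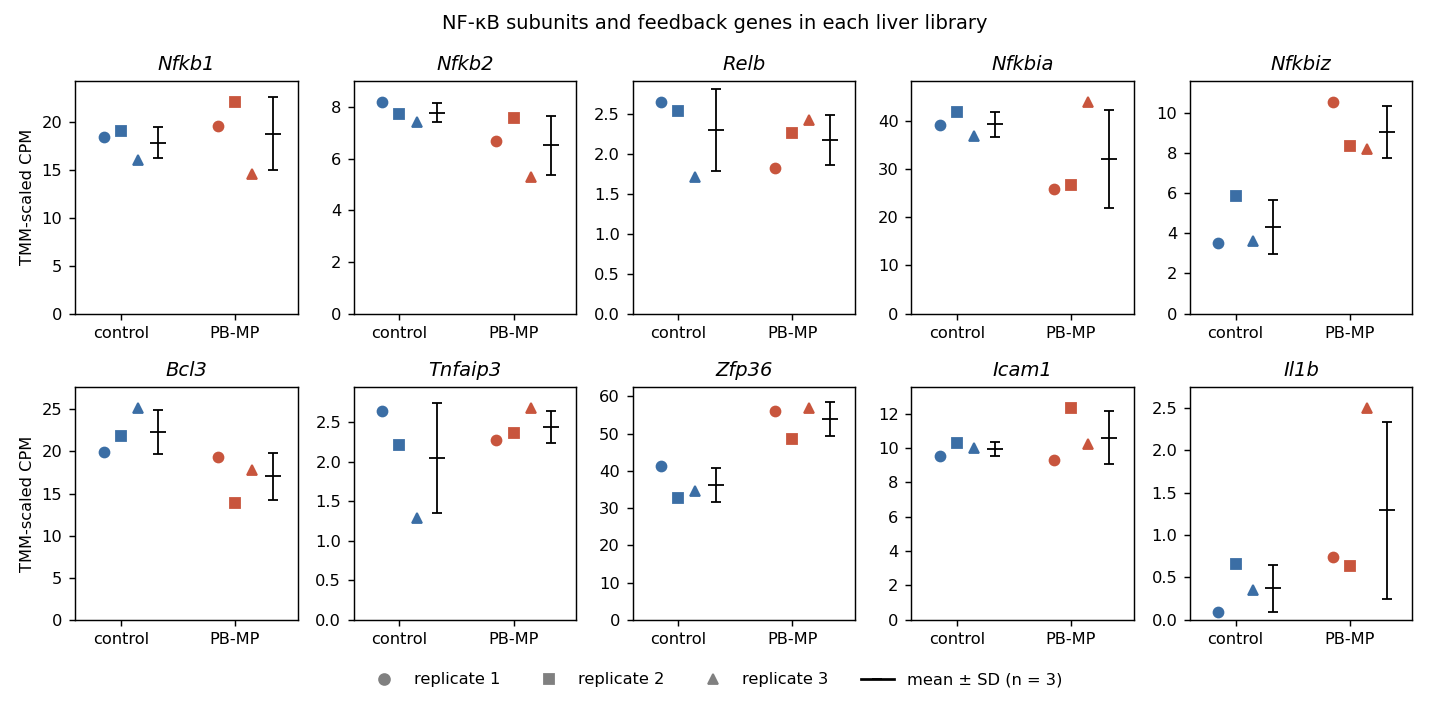
TMM-scaled CPM of the 10 genes in each library, with control in blue and PB-MP in red, symbols for replicates 1 to 3, and bars for mean ± SD (n = 3). Nfkbiz and Zfp36 are higher in each PB-MP library than in any control library, Bcl3 is lower in each, and Il1b is highest in PB-MP replicate 3 at 2.49 CPM.

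The subunits showed no separation between the diets. Nfkb1, which encodes the precursor of the p50 subunit, had 18.5, 19.1 and 16.02 CPM in control replicates 1, 2 and 3. In PB-MP replicates 1, 2 and 3 it had 19.7, 22.1 and 14.6 CPM. The lowest and the highest value were both in PB-MP, and the log2 fold change, given throughout as PB-MP over control, was 0.07 ± 0.21 (SE; edgeR adjusted p = 0.912). Nfkb2, the precursor of the p52 subunit of the alternative pathway, had 8.18, 7.74 and 7.42 CPM in control and 6.68, 7.55 and 5.29 in PB-MP. PB-MP replicate 2 lay within the control range and the other PB-MP libraries below it (log2 fold change -0.26 ± 0.20, edgeR adjusted p = 0.650). Relb, the usual partner of p52, had 2.65, 2.54 and 1.71 CPM in control and 1.83, 2.26 and 2.43 in PB-MP, all PB-MP values within the control range (-0.08 ± 0.27, edgeR adjusted p = 0.927).

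The 2 remaining subunits, which are not among the 10 genes, gave estimates of similar size. Rela, which encodes the main activating subunit p65, had 46.6, 37.1 and 40.7 CPM in control and 34.6, 36.5 and 34.4 in PB-MP. Its groups did not overlap, by a margin of less than 1 CPM, and its log2 fold change was -0.24 ± 0.15 (edgeR adjusted p = 0.562). Rel, expressed mainly in leukocytes, had a log2 fold change of 0.21 ± 0.32 (edgeR adjusted p = 0.835).

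The mRNAs of the IkappaB family, like those of the subunits, had estimates on both sides of 0. Nfkbiz encodes IkappaB-zeta, an inducible nuclear member of the family that acts as a coactivator at a subset of NF-kappaB target genes. It had 3.51, 5.87 and 3.604 CPM in control replicates 1, 2 and 3, against 10.5, 8.35 and 8.22 in PB-MP replicates 1, 2 and 3, from 256 to 830 reads. Every PB-MP library stood above every control library, the control library nearest to them being replicate 2. The means were 4.33 ± 1.34 and 9.03 ± 1.30 CPM (SD, n = 3 each), a log2 fold change of 1.06 ± 0.27 (95% interval 0.43 to 1.69) with an unadjusted p of 0.00531 and an edgeR adjusted p of 0.244. DESeq2 gave Nfkbiz an adjusted p of 0.0204, the 1 member it called, beside 3.03% of the 17820 genes to which it gave an adjusted p. Over all 18 alternatives the adjusted p of Nfkbiz ran from 0.0204 to 0.566.

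Bcl3 encodes the other nuclear IkappaB of the set, which binds p50 and p52 dimers and can activate or repress. It had 19.9, 21.9 and 25.1 CPM in control and 19.3, 13.9 and 17.8 in PB-MP. The groups were separated by less than 1 CPM, and the log2 fold change was -0.39 ± 0.20 (95% interval -0.85 to 0.07, edgeR adjusted p = 0.471). With library size alone as the scaling, the groups overlapped and the estimate was -0.16.

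Nfkbia encodes IkappaB-alpha, the classical cytoplasmic inhibitor whose resynthesis ends a round of activation. It had 39.1, 41.8 and 36.7 CPM in control and 25.8, 26.6 and 43.9 in PB-MP. PB-MP replicates 1 and 2 stood below all controls and PB-MP replicate 3 above them, so that the log2 fold change was -0.29 ± 0.23 (edgeR adjusted p = 0.660). Without PB-MP replicate 3 the estimate was -0.59, with an unadjusted p of 0.00624 and an edgeR adjusted p of 0.323, and over 18 alternatives the adjusted p ran from 0.128 to 0.916.

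Of 5 other IkappaB family members and inhibitors listed, 0 passed and 0 had an unadjusted p below 0.05. Nfkbie, which encodes IkappaB-epsilon, was at a log2 fold change of -0.09 ± 0.23. Nkrf, a repressor of NF-kappaB target promoters, was at 0.16 ± 0.22, and Commd1, which promotes the turnover of p65, at -0.09 ± 0.28. Nfkbib was at -0.06 ± 0.23. Nfkbid had a larger estimate of low precision, at 1.12 ± 0.48 with overlapping groups (edgeR unadjusted p = 0.0516, adjusted p = 0.417). It had 11, 8 and 22 reads in control and 16, 37 and 43 in PB-MP.

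Of the 2 feedback inhibitors, Zfp36 separated the diets and Tnfaip3 did not. Zfp36 encodes tristetraprolin, which binds AU-rich elements and speeds the decay of cytokine mRNAs, among them that of tumour necrosis factor. It had 41.4, 32.7 and 34.6 CPM in control and 56.1, 48.5 and 56.8 CPM in PB-MP, from 1981 to 5535 reads. Every PB-MP library was above every control library, with means of 36.2 ± 4.56 and 53.8 ± 4.57 CPM (SD, n = 3 each). The log2 fold change was 0.57 ± 0.16 (95% interval 0.19 to 0.95, unadjusted p = 0.00875, edgeR adjusted p = 0.267). DESeq2 gave Zfp36 an adjusted p of 0.127, and over 18 alternatives it ran from 0.107 to 0.621. Tnfaip3, a ubiquitin-editing enzyme that shuts off signalling above the IkappaB kinase, had 2.65, 2.21 and 1.28 CPM in control and 2.28, 2.36 and 2.68 in PB-MP. Its groups overlapped, with control replicate 3 the lowest of the 6 libraries (log2 fold change 0.26 ± 0.31, edgeR adjusted p = 0.778).

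The 2 target genes differed in precision. Icam1, the intercellular adhesion molecule through which leukocytes attach to endothelium, had 9.54, 10.3 and 10.01 CPM in control and 9.29, 12.3 and 10.2 in PB-MP. The groups overlapped and the log2 fold change was 0.09 ± 0.19 (95% interval -0.34 to 0.53, edgeR adjusted p = 0.873). With library size alone as the scaling, Icam1 was higher in PB-MP without overlap, at 0.31. The median of all genes was 0.23 in that setting.

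Il1b, which encodes the cytokine interleukin-1 beta and is made mainly by myeloid cells, was the member with the fewest reads. It had 7, 40 and 37 reads in control replicates 1, 2 and 3 (0.0959, 0.660 and 0.352 CPM) and 58, 54 and 243 reads in PB-MP replicates 1, 2 and 3 (0.735, 0.638 and 2.49 CPM). PB-MP replicate 3 was the highest library, and PB-MP replicates 1 and 2 stood beside control replicate 2, so that the groups overlapped. The log2 fold change was 1.81 ± 0.78 (95% interval -0.03 to 3.66, unadjusted p = 0.0530, edgeR adjusted p = 0.420). Without PB-MP replicate 3 it was 0.90 (unadjusted p = 0.264), and without control replicate 2 it was 2.47 (unadjusted p = 0.0307, edgeR adjusted p = 0.241). Over the 17 alternatives that tested it, the adjusted p ran from 0.203 to 0.696. With library size alone as the scaling, Il1b was higher in PB-MP without overlap, at 2.06 (edgeR adjusted p = 0.263).

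**Figure D2:**
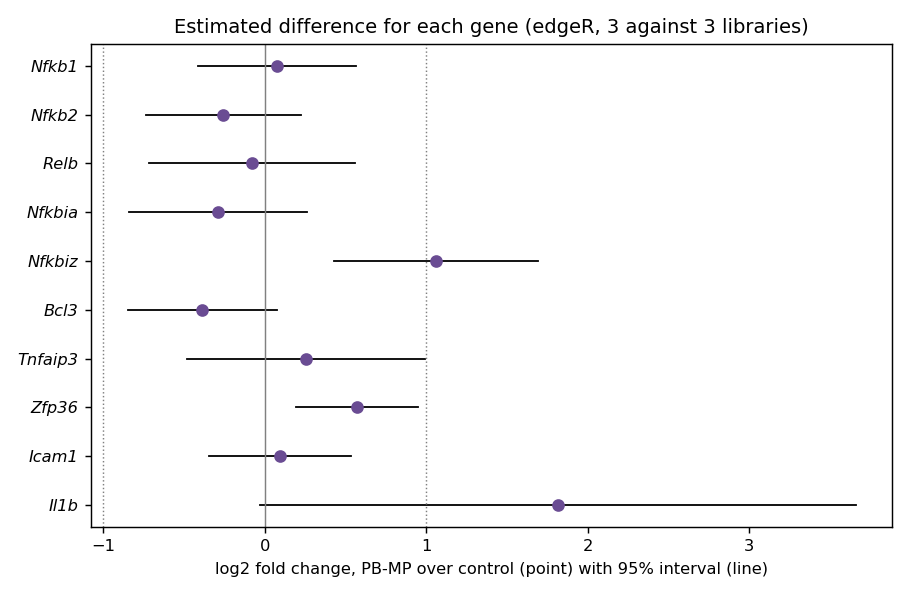
Log2 fold change of each gene, PB-MP over control (points), with its 95% interval (lines) from edgeR on 3 against 3 libraries, and dotted lines at -1 and 1. The intervals of Nfkbiz (0.43 to 1.69) and Zfp36 (0.19 to 0.95) lie above 0, and that of Il1b is the widest, at -0.03 to 3.66.

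For most members a change of 2-fold or more lay outside the 95% interval. The interval was within -1 to 1 on the log2 scale for 8 of the 10 genes, namely all but Nfkbiz and Il1b, beside 45.7% of all genes tested. The median width to either side of the estimate was 0.52, against 0.73 over all genes. For Tnfaip3 the upper bound was close to that limit, at 0.99. In a simulation of this comparison over 17358 genes, the same test found 30 of 66 genes made to differ 4-fold (45.5%), 1 of 67 at 2-fold and 0 of 67 at 1.5-fold.

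Leaving out 1 library at a time showed which estimates leaned on a single liver library. Nfkbiz stayed between 0.93 and 1.31 and Zfp36 between 0.47 and 0.67, each with an unadjusted p below 0.05 in all 6 fits and an adjusted p of at least 0.133 and 0.247. Bcl3 stayed between -0.49 and -0.26. Nfkbia ran from -0.59 to -0.15 and Il1b from 0.90 to 2.47, with the value nearest 0 for Il1b and the one farthest from 0 for Nfkbia both obtained without PB-MP replicate 3. The estimate of Tnfaip3 was 0.00 without control replicate 3 and 0.49 without control replicate 1.

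**Figure D3:**
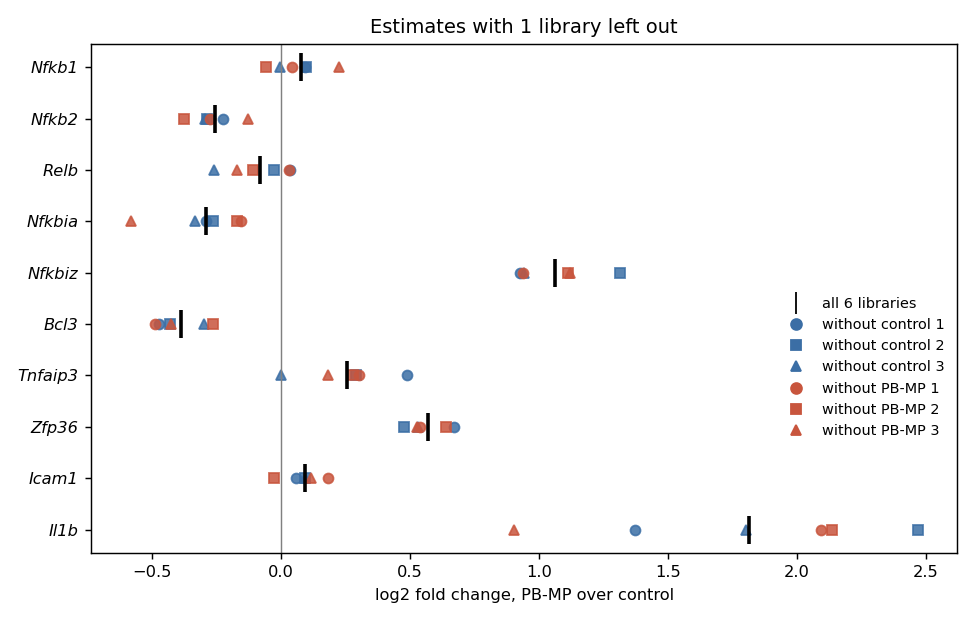
Log2 fold change of each gene, PB-MP over control, with all 6 libraries (black bars) and with 1 library left out (blue without a control library, red without a PB-MP library). Nfkbiz and Zfp36 stay above 0 in each fit, at 0.93 to 1.31 and 0.47 to 0.67, and Il1b drops to 0.90 without PB-MP replicate 3.

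Ratios of reads between 2 members of the same library do not depend on the scaling, which matters here because the scaling factors moved with the diet. The 6 ratios computed were chosen after the values were seen and are given without a test. For 5 of them the groups did not overlap, and for Tnfaip3 to Nfkbia they did. No share over the ratios of other gene pairs is given here, so this count has no background and is not read as a result. The ratio of Nfkbiz to Bcl3 reads was 0.177, 0.269 and 0.144 in control replicates 1, 2 and 3 and 0.545, 0.600 and 0.460 in PB-MP replicates 1, 2 and 3. With Nfkbiz higher and Bcl3 lower without overlap in TMM-scaled CPM, this ratio had to separate the groups and adds no evidence of its own. The ratio of Nfkbiz to Nfkbia was 0.0897, 0.140 and 0.0981 in control and 0.408, 0.314 and 0.187 in PB-MP, also without overlap. That of Zfp36 to Nfkbia was 1.06, 0.781 and 0.942 in control and 2.17, 1.82 and 1.29 in PB-MP. PB-MP replicate 3, where Nfkbia was high, was the PB-MP library nearest to control in both of these ratios. The ratio of Tnfaip3 to Nfkbia overlapped, at 0.0676, 0.0529 and 0.0349 in control and 0.0885, 0.0888 and 0.0611 in PB-MP. That of Zfp36 to Bcl3 was 2.08, 1.50 and 1.38 in control and 2.90, 3.49 and 3.18 in PB-MP. Its lack of overlap likewise followed from the levels of the 2 genes, Zfp36 being higher and Bcl3 lower without overlap.

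The ratio of Nfkb1 to Nfkb2 was 2.26, 2.47 and 2.16 in control and 2.94, 2.93 and 2.77 in PB-MP, with means of 2.30 ± 0.156 and 2.88 ± 0.0980 (SD, n = 3 each). The groups did not overlap for this ratio although they did for either gene alone, and the deviations of both genes from their group means ran together over the 6 libraries (r = 0.96, a description over 6 libraries that share their scaling).

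**Figure D4:**
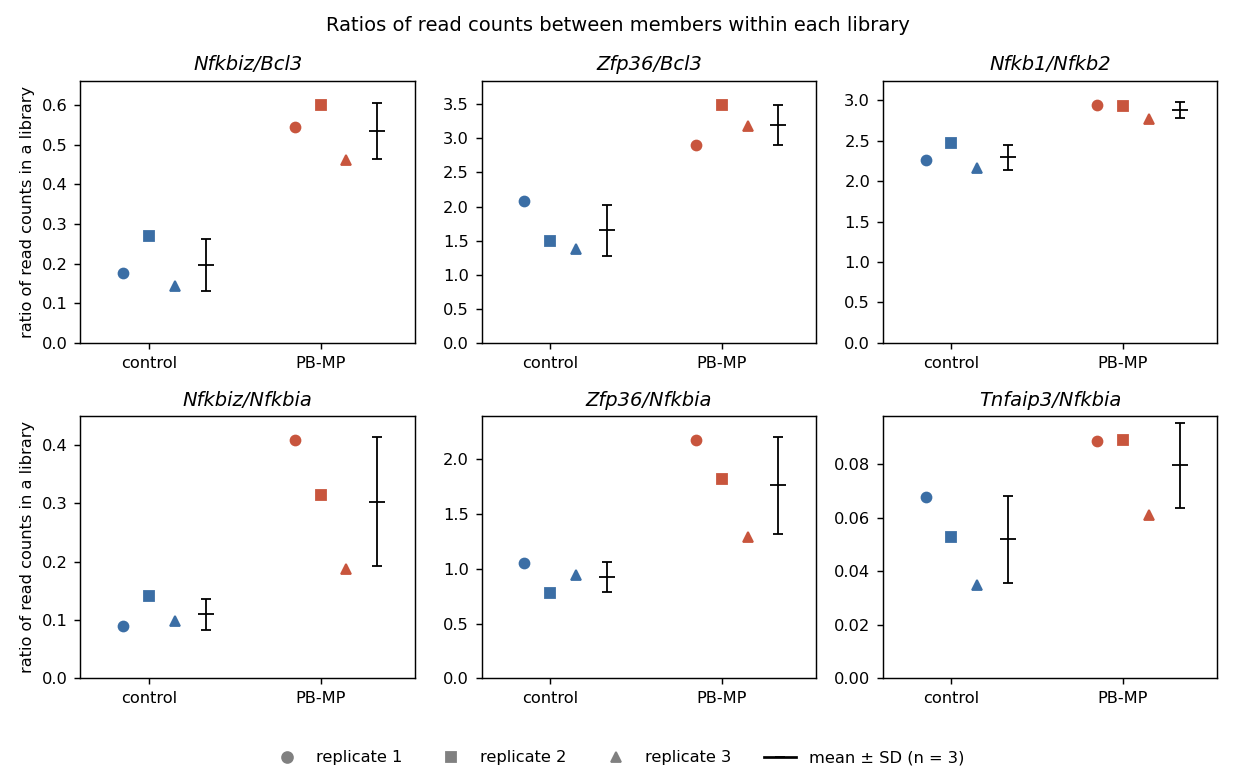
Ratios of read counts between 2 members within each library, with control in blue and PB-MP in red, symbols for replicates, and bars for mean ± SD (n = 3). In 5 panels each PB-MP library is above every control library, in that of Tnfaip3/Nfkbia the groups overlap, and Nfkb1/Nfkb2 stands at 2.30 ± 0.156 in control and 2.88 ± 0.0980 in PB-MP.

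To order the genes by level, CPM were divided by the length in kilobases of the longest transcript in GENCODE M21. In control, Nfkbia was the most abundant at 24.9 ± 1.62 CPM per kilobase, followed by Zfp36 at 12.98 ± 1.63 and Bcl3 at 12.1 ± 1.42. Nfkb1 and Icam1 came next at 4.31 ± 0.391 and 3.93 ± 0.155 CPM per kilobase, then Nfkb2 at 2.02 ± 0.0992, Nfkbiz at 1.05 ± 0.325 and Relb at 0.703 ± 0.157. Tnfaip3 and Il1b were the lowest at 0.330 ± 0.112 and 0.272 ± 0.208 CPM per kilobase (SD, n = 3). The ranges of mean ± SD overlapped for the neighbours Zfp36 and Bcl3, Nfkb1 and Icam1, Nfkbiz and Relb, and Tnfaip3 and Il1b. In PB-MP the order began with Nfkbia at 20.3 ± 6.46 and Zfp36 at 19.3 ± 1.64, whose ranges overlapped, and Nfkbiz, at 2.19 ± 0.315, stood beside Nfkb2 at 1.69 ± 0.296 CPM per kilobase.

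The 10 genes did not vary as 1 block over the libraries. Of the 45 pairs, 24 had a positive correlation of log2 CPM over the 6 libraries, with a median r of 0.03, and a median of 0.06 after subtracting each group's mean. Nfkbiz correlated with Zfp36 and with Il1b at 0.75 each, but after subtracting group means r was -0.43 and 0.42. Relb and Tnfaip3 ran together at 0.75, and at 0.92 within groups. The genes most like the mean profile of the members, among those of at least 1 CPM, were Osmr, Nasp, Arhgap39, Map3k12 and Baz2b, with r of 0.979 to 0.985 over 6 libraries. None of these separated the diets, the log2 fold change of Osmr, a receptor subunit for oncostatin M, being 0.24 ± 0.32 (edgeR adjusted p = 0.795). These correlations describe 6 libraries that share their scaling, and none was tested.

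The rest of the pathway was described by lists arranged by role. Of 112 further pathway genes, 101 were tested and 0 passed at an adjusted p below 0.05 in edgeR. DESeq2 called 1 of them, Cxcl1. At an unadjusted p below 0.05 there were 6 higher in PB-MP and 3 lower, where 7.35% of all genes were higher and 4.74% lower, so the pathway held no larger share than the table as a whole. The median log2 fold change over the 101 genes was -0.01.

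Ligands and receptors upstream showed values of low precision. Tnf, the cytokine whose mRNA tristetraprolin destabilises, had 12, 6 and 23 reads in control and 22, 24 and 49 in PB-MP, which is 0.165, 0.0990 and 0.219 CPM against 0.279, 0.284 and 0.503 CPM. Its groups did not overlap (log2 fold change 1.118 ± 0.49, unadjusted p = 0.0553, edgeR adjusted p = 0.424). Il6, an interleukin that drives the acute phase response, had 0 reads in 5 libraries and 5 in PB-MP replicate 3, and was not tested. Among 17 tested receptor genes, 1 was higher at an unadjusted p below 0.05, namely Il1rap, the shared coreceptor of the interleukin-1 family, at 0.47 ± 0.20 (unadjusted p = 0.0477). Of the 8 tested ligands, 0 were past that limit, with Il1a at 0.62 ± 0.37, Tnfsf12 at -0.74 ± 0.43 and Ltb at -0.60 ± 0.38.

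The kinases and adaptors between receptor and IkappaB gave mostly small estimates. Of 8 kinase genes 1 had an unadjusted p below 0.05, Tbk1, which encodes a kinase related to the IkappaB kinases, at a log2 fold change of 0.43 ± 0.16 (edgeR adjusted p = 0.365). Ikbkb, which encodes the kinase that phosphorylates IkappaB-alpha, was at 0.17 ± 0.16. Ikbkg, the regulatory subunit NEMO, had 28.0, 4.29 and 10.3 CPM in control and 6.10, 6.04 and 5.28 in PB-MP, so control replicate 1 set most of its estimate of -1.29 ± 0.61. Of 19 adaptor genes 0 were past an unadjusted p of 0.05, with Birc2, a ubiquitin ligase of the receptor complex, at 0.54 ± 0.26, Traf2 at -0.29 ± 0.17 and Ripk1 at 0.18 ± 0.15.

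Of 17 further regulators of the pathway tested, 2 were higher and 1 lower at an unadjusted p below 0.05, beside 7.35% and 4.74% of all genes. Zc3h12a encodes the endonuclease regnase-1, which degrades cytokine mRNAs and also targets Nfkbiz mRNA. It had 1.48, 1.27 and 1.48 CPM in control and 2.40, 1.90 and 3.15 in PB-MP (log2 fold change 0.81 ± 0.27, unadjusted p = 0.0194, edgeR adjusted p = 0.331). Tnip2, an adaptor that works with the product of Tnfaip3, was at 0.61 ± 0.21 and Rnf11, a subunit of the same ubiquitin-editing complex, at -0.48 ± 0.17. The zinc finger paralogs of Zfp36 overlapped between the groups, Zfp36l1 at 0.14 ± 0.29 and Zfp36l2 at 0.18 ± 0.26, named after their values were seen.

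NF-kappaB target genes pointed both ways. Of 25 tested, 2 were higher and 2 lower at an unadjusted p below 0.05, beside 7.35% and 4.74% of all genes. The median log2 fold change was -0.07. The groups did not overlap for 3 that were higher (Selp, Cxcl1, Nlrp3) and 5 that were lower (Vcam1, Ccl5, Sod2, Bcl2l1, Tapbp). Over all genes tested these shares were 11.4% higher and 8.49% lower. The summed level of the listed targets was 742, 579 and 686 CPM in control and 558, 551 and 460 in PB-MP, lower without overlap (exact permutation p = 0.1). Most of this sum was Sdc4 and Sod2. Sdc4 had a control mean of 269 CPM and a PB-MP mean of 190, with overlapping groups. The corresponding means were 185 and 154 for Sod2, 79.0 and 49.5 for Tapbp, and 669 and 523 for the whole sum. The lower sum thus followed a few abundant genes and does not stand for the list. Cxcl1, a neutrophil chemokine, had 1.34, 1.502 and 1.78 CPM in control and 6.99, 3.90 and 5.63 in PB-MP (1.83 ± 0.29, edgeR adjusted p = 0.207). The DESeq2 adjusted p of Cxcl1 was 1.4e-05. Selp, an endothelial and platelet adhesion molecule, was at 0.79 ± 0.26, and Tapbp, which loads peptides on class I molecules, at -0.67 ± 0.25. The other lower gene was Bcl2a1d, a survival gene whose near-identical family members make its count uncertain, at less than 1 CPM in each library. Vcam1, the adhesion molecule often induced along with Icam1, was at -0.43 ± 0.19 and Sod2, an antioxidant target, at -0.26 ± 0.14, and genes of this list other than Cxcl1, Selp and Tapbp were named after their values were seen.

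Early response genes, which share rapid induction with Zfp36, gave estimates on both sides of 0. Of 19 tested, 0 were higher and 1 was lower at an unadjusted p below 0.05, beside 7.35% and 4.74% of all genes. Their median log2 fold change was 0.09. The lower one was Jund, a subunit of the AP-1 factor, at 97.9, 96.1 and 80.3 CPM in control and 59.3, 63.9 and 58.4 in PB-MP (-0.59 ± 0.14, edgeR adjusted p = 0.241, DESeq2 adjusted p = 0.0441). Jun, another subunit, was at -0.53 ± 0.25 and Nr4a1, an inducible nuclear receptor, at 0.76 ± 0.39.

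Marker sums of some immune cells also separated the groups. In bulk liver, fewer cells of a type and less RNA per cell cannot be told apart. The summed level of 8 neutrophil markers was 1.33 to 1.85 CPM in control and 3.18 to 5.65 CPM in PB-MP, without overlap. A two-sided exact permutation test gave p = 0.1, below which 3 against 3 libraries cannot go. Of these markers, S100a8, S100a9, Csf3r and Retnlg were higher in PB-MP without overlap, beside 11.4% of all genes tested. S100a9 and Csf3r were at log2 fold changes of 1.91 ± 0.45 and 1.32 ± 0.33. DESeq2 called S100a9 and Csf3r, with adjusted p of 0.0174 and 0.0386. Cxcr2, a chemokine receptor of neutrophils, was at -0.29 ± 0.80 with overlapping groups. The defining marker Ly6g had 0 reads in every library, Mmp8 had 13 reads in PB-MP replicate 3 and 0 elsewhere, and Ngp had 0, 9 and 3 reads in control and 0, 7 and 0 in PB-MP.

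The summed level of 11 Kupffer cell and macrophage markers was 144 to 191 CPM in control, 201 and 180 in PB-MP replicates 1 and 2, and 379 in PB-MP replicate 3, the library with most Il1b (exact permutation p = 0.2). All 11 markers had estimates above 0, and 3 (Vsig4, Marco and Cd68) were higher without overlap, beside 11.4% of all genes tested. For the most abundant marker, Cd5l, the log2 fold change was 0.42 ± 0.26. The part of these cell types in the levels of Il1b, Nfkbia, Nfkbiz and Zfp36 was not tested.

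**Figure D5:**
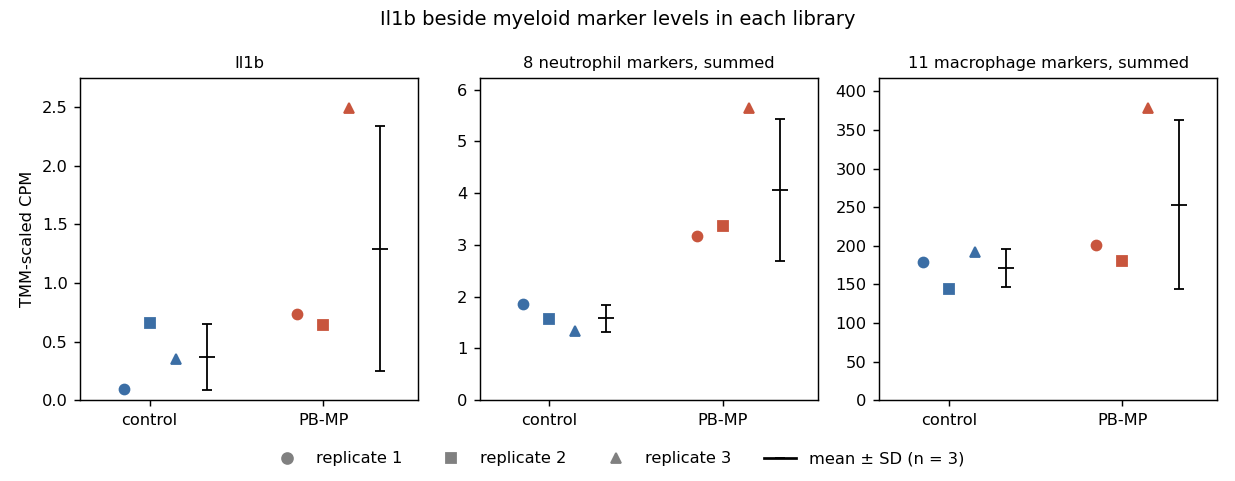
TMM-scaled CPM in each library of Il1b, of 8 neutrophil markers summed and of 11 Kupffer cell and macrophage markers summed, with control in blue, PB-MP in red and bars for mean ± SD (n = 3). PB-MP replicate 3 is the highest library in all 3 panels, at 2.49, 5.65 and 379 CPM.

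The remaining marker lists gave sums that were lower in PB-MP or overlapped. Summed T and NK cell markers were lower in PB-MP without overlap, at 4.02 to 5.20 CPM against 5.75 to 8.15 in control (exact permutation p = 0.1), with Trac, a T cell receptor constant region, at -0.84 ± 0.27. Sums overlapped between the groups for monocyte, B cell, endothelial, stellate, cholangiocyte, adipocyte and hepatocyte markers, with exact permutation p of 0.2 to 0.9. The B cell sum was 179 CPM in control replicate 2, against 18.2 to 70.2 in the other 5 libraries, with Igkc, an immunoglobulin constant region, at 124.5 CPM there. Within 3 of these lists some markers separated the groups. Of 8 stellate cell markers 3 were lower in PB-MP without overlap, beside 8.49% of all genes tested. These were Col1a1 at -1.04 ± 0.28 (edgeR adjusted p = 0.255, DESeq2 adjusted p = 0.0295), Col3a1 at -0.82 ± 0.24 and Des at -0.66 ± 0.27. Nearly all of the adipocyte sum was Car3, while Cfd at -3.11 ± 0.65 (edgeR adjusted p = 0.207, DESeq2 adjusted p = 4.4e-05) and Retn at -3.02 ± 0.84 were lower without overlap. The defining adipocyte markers Adipoq, Plin1 and Lep had 0 to 9 reads in any library. Jchain, of antibody-secreting cells, was lower without overlap at -2.30 ± 0.67 (edgeR adjusted p = 0.291, DESeq2 adjusted p = 0.00707). Most of the monocyte sum was Fn1, at means of 762 of 796 CPM in control and 924 of 984 in PB-MP. In the monocyte list 3 of 6 markers had estimates above 0, and all overlapped between the groups. Itgam was at -1.05 ± 0.51, Ly6c2 at -0.63 ± 0.34 and Chil3 at -0.18 ± 0.56. Ccr2 was at 0.26 ± 0.46 and Lyz2 at 0.91 ± 0.69. Lyz2 had 19.7, 42.8 and 29.3 CPM in control and 26.6, 20.3 and 125 in PB-MP. In the cholangiocyte list Sox9 was at -0.53 ± 0.47, with overlap. The part of these cell types in the members' levels was not tested. The most abundant genes of 5 lists were Fn1, Clec4g, Dcn, Spp1 and Car3. Their log2 fold changes were 0.28 ± 0.28, 0.30 ± 0.35, -0.29 ± 0.24, 0.59 ± 0.40 and -0.24 ± 0.25. The monocyte and adipocyte sums followed Fn1 and Car3 and do not stand for their lists.

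Some members share their position with a gene on the opposite strand. GENCODE M21 places opposite-strand genes over Nfkb2, Bcl3, Zfp36, Icam1 and Il1b, and a same-strand model over Nfkb1, and the strand setting of the counting is not given in the sources used here. Psd, opposite Nfkb2, had 37 to 113 reads, beside 469 to 780 reads of Nfkb2, and in PB-MP replicate 3 these were 113 and 516. Gm16174, opposite Bcl3, had 48 to 131 reads, beside 1176 to 2641 of Bcl3. The part of such reads in the levels of Nfkb2 and Bcl3, and in ratios with them, was not tested. Il1bos, antisense to Il1b, had 0 to 10 reads in any library, and Gm44710, antisense to Zfp36, had 0 to 15. Nfkbiz, Nfkbia, Relb and Tnfaip3 had no overlapping gene in that annotation.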

How the data were processed

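The values deposited by the authors are read counts for each gene symbol, whole numbers without normalization, of 6 liver libraries. Per the labels' protocols, poly(A) RNA was isolated and libraries were built with a directional kit. Per the submitters' processing notes, bcl2fastq and the build GRCm39 were used. Sources used here name no aligner, counter or annotation. The 6 single files were identical to the table of all samples. Of 56674 rows, 939 share a name, and the row with most reads kept it. The labels' diet set the groups. Counts were filtered with filterByExpr (minimum count 10, minimum total 15), scaled by TMM and tested in R 4.3.3 with edgeR 4.0.16 by quasi-likelihood, with a threshold of 0.05 on the p adjusted by Benjamini-Hochberg. SE is the log2 fold change divided by the square root of F. Correlations used log2 CPM with a prior count of 2. No 2 libraries agreed within sampling noise (chi-square per degree of freedom of at least 201). The test was checked on simulated data with 200 changed genes of at least 1 CPM, where it made 3 calls on unchanged genes.

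Members and lists were chosen with earlier results of these data known. Named are all 10 members, Rela, Rel, Tnf, Il6, Ikbkb, Ikbkg and Cxcl1, up to 3 genes of smallest p per pathway list at a mean of at least 1 CPM, the most abundant gene of each marker list, and 5 genes most like the members. Other genes were named after their values were seen. Alternatives were other scalings and filters, DESeq2 1.42.0, limma-voom 3.58.1 with and without quality weights, robust estimation, a replicate block, rows left out and libraries left out. Limits for a count of 0 cover counting error only. The intervals of log2 fold changes come from the quasi-likelihood fit and also include the spread among the libraries.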

Additional observations from a re-analysis of the deposited data

How the results depend on the processing

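Of 179 member estimates under 18 alternatives, 172 kept their direction and their side of the threshold, 6 turned sign and 1 passed only there. That 1 was Nfkbiz in DESeq2, at 1.06. The estimate of Relb turned with library size only (0.135), and ran from -0.26 to 0.033 with 1 library left out, turning without control replicate 1 or PB-MP replicate 1. That of Nfkb1 ran from -0.059 to 0.224, turning without control replicate 3 or PB-MP replicate 2, and that of Icam1 from -0.028 to 0.180, turning without PB-MP replicate 2. Nfkbiz and Zfp36 kept an unadjusted p below 0.05 in all 18 alternatives. The adjusted p ran from 0.0204 to 0.566 for Nfkbiz and from 0.107 to 0.621 for Zfp36. Genes past the threshold were 0 with all libraries in edgeR, 540 in DESeq2, 0 to 1 with 1 library left out and 2 without the pair of control 2 and PB-MP 3. Members at an unadjusted p below 0.05 numbered 4 with quality weights (with Nfkbia and Il1b), where 23.4% of all genes were below it. With 1 library left out they numbered 2 to 3, beside 7.92% to 17.8% of all genes. The members' median was 0.30 with library size only, which raised the median of all genes to 0.23, and ran from -0.043 to 0.149 with 1 library left out. Members without overlap numbered 4 with library size only, namely Nfkbiz, Zfp36, Icam1 and Il1b, all higher in PB-MP. They numbered 3 to 5 with 1 library left out and 6 without the same pair, fewer libraries leaving fewer values to overlap. Nfkbiz and Zfp36 were among them each time. With the replicate number as a block, 0 genes passed, 1836 had an unadjusted p below 0.05, and 3 members did, with Nfkbiz at 1.09. The deviations of same-numbered libraries correlated at -0.09, 0.09 and 0.08, none over 0.1, so the numbers were not taken as pairs. As hints of a link from the data, 4 of 6 libraries were most like the library of their own number, and the 18S rRNA share went with the number (2.92% and 3.61%, 11.2% and 9.42%, 1.15% and 0.707% in control and PB-MP). Depth limited Il1b, Tnf and Il6. Il1b was not tested with at least 1 CPM in 3 libraries.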
